A study of Mus musculus with 3 samples.

Results

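RL, the ligand of the receptor RANK, was given to primary cultures of mammary tumor cells, and 54 named genes had lower RNA signals with RL than without it in all 3 tumors after genes of milk and a few others were set aside. These genes were selected on their measured ratios. On each array the log2 of the RL over the control signal was taken from the processed intensities, and a gene entered when a probe was well above background in all 6 channels and its log2 was −0.35 or lower on each of the 3 arrays, that is at least 1.27-fold lower. They make up 54 of 13670 named genes with such a probe. Another 10 genes met the same threshold and were left out by name: Lalba, Wap, Cldn2, Bhlha15, Lrg1, H19, Csn2, Csn1s1, Foxi1 and Saa1. Together these 64 genes are 0.468% of the 13670, and 32 genes, 0.234%, met the mirrored threshold of 0.35 or higher. Since the ratios chose the genes, their values are a description and carry no test.

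The 3 tumors came from MMTV-PyMT mice, in which the mouse mammary tumor virus promoter drives the polyoma middle T antigen in mammary epithelium. The methods describe such cultures as cells of RANK+/+ or RANK−/− tumor transplants, seeded on Matrigel with reduced growth factors. They do not state which of these genotypes the cultures given RL had. From each tumor 1 culture received RL for 24 h and 1 did not, and both RNAs were hybridized to 1 two-color array, so each ratio pairs cultures of the same tumor. All cultures, the controls included, grew in DMEM F12 with FBS, cholera toxin, insulin and EGF. The labels give RL at 1000 µg/ml while the methods give a lower dose, and the age and strain of these mice are not given in the labels. Tumor 2 had the opposite dye order (RL in Cy5) to the other tumors (RL in Cy3), so the threshold had to be met in both orders.

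RANK is a receptor of the TNF receptor family that signals through TRAF adaptors to NF-kB, and its ligand is best known for driving osteoclast formation. In the mammary gland RL is made by hormone-sensing luminal cells under progesterone and acts on neighboring epithelial cells, where it drives expansion of progenitors. Alveolar cells, in contrast, mature under prolactin and Stat5 and make milk proteins, lipid and the ions and sugars of milk. Tnfrsf11a, which encodes RANK, was well above background in all 6 channels, with log2 ratios of 0.16, −0.04 and 0.13 in tumors 1, 2 and 3. Tnfsf11, which encodes RL itself, was well above background in 2 of 3 control cultures and in all 3 with RL, and no ratio is given for it. The reference gene Hprt had ratios of −0.11, 0.21 and 0.02. Krt18, the brightest of the luminal markers, and the other 13 of 14 luminal markers were all well above background in all 6 channels.

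Across the 54 genes the mean log2 ratio ran from −1.06 for Cyp4b1 to −0.38 for Adgrv1, with a median of −0.59. Tumors 1, 2 and 3 had median ratios of −0.67, −0.50 and −0.51 over the 54, while the medians of all 13670 genes were −0.004, −0.008 and −0.002. Tumor 1 held the lowest ratio for 31 of the 54 genes, tumor 2 for 13 and tumor 3 for 10, while for all genes the shares were 33.5%, 36.9% and 29.6%. On normalized ratios the counts were 40, 8 and 6, and the tumor was the same as on processed signals for 37 of the 54. Only 2 genes, Cyp4b1 and Abcc9, were on average 2-fold lower or more, and 0 were 2-fold lower in every tumor. On normalized ratios, described further on, the means of Cyp4b1 and Abcc9 were −0.34 and −0.37. Of the 54, 52 are protein-coding and 2 are long noncoding RNAs, Pinc and 1600025M17Rik. The median SD over the 3 tumors was 0.15, beside 0.14 for all genes. In such cultures of mixed cells, fewer cells of a type and less RNA per cell cannot be told apart.

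**Figure D1:**
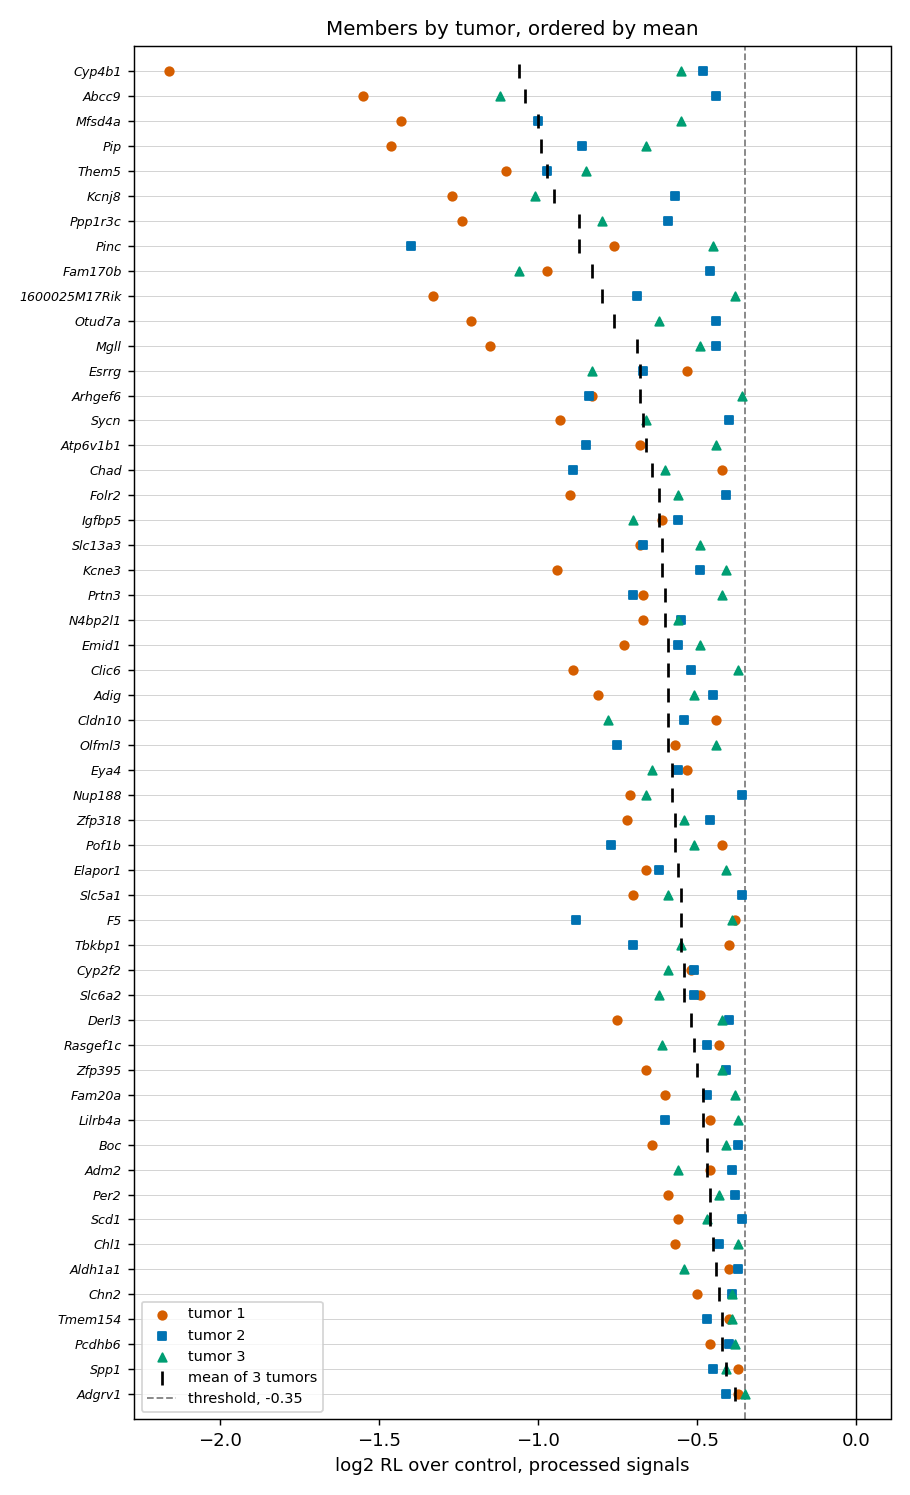
Log2 RL over control from processed signals for each of the 54 genes (rows, ordered by mean), with a symbol for each tumor, a bar for the mean of the 3 tumors and a dashed line at the threshold of −0.35. Cyp4b1 in tumor 1, at −2.16, lies farthest to the left, and spreads between tumors are widest among the genes with the lowest means.

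Some of the 54 encode channels and transporters. Abcc9 encodes the regulatory subunit SUR2 of the ATP-sensitive potassium channel, and its ratios were −1.55, −0.44 and −1.12 in tumors 1, 2 and 3 (mean −1.04 ± 0.56, SD, n = 3). Kcnj8 encodes Kir6.1, the pore that SUR2 assembles with, and its ratios were −1.27, −0.57 and −1.01 (mean −0.95 ± 0.35). Both subunits of this channel had their highest ratio in tumor 2, while the tumor with the lowest was tumor 1 for Abcc9 and for Kcnj8 depended on the values, being tumor 1 here and tumor 3 on normalized ratios (−0.28, −0.17 and −0.36). The genes are also direct neighbors in the RefSeq gene order, with 0 annotated genes between them, and no other pair of the 54 lay within 10 genes of each other. Kcne3, an accessory subunit of voltage-gated potassium channels, had ratios of −0.94, −0.49 and −0.41. Slc13a3, a sodium-coupled carrier of dicarboxylates, had ratios of −0.68, −0.67 and −0.49, nearly the same in tumors 1 and 2. Atp6v1b1, the B1 subunit of the vacuolar proton pump found in acid-secreting cells, had ratios of −0.68, −0.85 and −0.44. Mfsd4a, a carrier-like membrane protein, had ratios of −1.43, −1.0 and −0.55, but its other probes differed, as described further on. The sodium-glucose carrier Slc5a1 (mean −0.55), the norepinephrine carrier Slc6a2 (−0.54) and the chloride intracellular channel gene Clic6 (−0.59) also belong here.

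Promoters are shown for the neighboring channel pair, because its members lie side by side and had low ratios together, for Atp6v1b1, the only listed proton-pump gene among the 54, and for Pip, whose control signal differed most between tumors. The sequences are from RefSeq (build GRCm38.p6), each of 300 bases from 250 before to 50 after the start of transcription, 5′ to 3′ on the strand of the gene. Capitals mark matches to any of 8 motifs searched on both strands. The Abcc9 promoter, chr6:142702225-142702524, on the minus strand, holds 2 matches to the NF-kB consensus and an E-box. The Kcnj8 promoter, chr6:142571565-142571864, on the minus strand, holds none of the 8. The Atp6v1b1 promoter, chr6:83742767-83743066, on the plus strand, holds a forkhead match that begins 98 bases before the start and a GATA match that begins at base 1. The Pip promoter, chr6:41847299-41847598, on the plus strand, holds 2 matches to the STAT motif and 1 to AP-1.
Abcc9: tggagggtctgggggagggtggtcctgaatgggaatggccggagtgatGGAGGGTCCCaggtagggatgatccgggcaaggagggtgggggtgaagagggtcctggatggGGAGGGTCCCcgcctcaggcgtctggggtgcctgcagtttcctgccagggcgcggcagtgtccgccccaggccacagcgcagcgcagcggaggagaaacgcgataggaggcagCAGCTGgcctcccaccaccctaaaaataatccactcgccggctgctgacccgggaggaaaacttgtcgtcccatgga
Kcnj8: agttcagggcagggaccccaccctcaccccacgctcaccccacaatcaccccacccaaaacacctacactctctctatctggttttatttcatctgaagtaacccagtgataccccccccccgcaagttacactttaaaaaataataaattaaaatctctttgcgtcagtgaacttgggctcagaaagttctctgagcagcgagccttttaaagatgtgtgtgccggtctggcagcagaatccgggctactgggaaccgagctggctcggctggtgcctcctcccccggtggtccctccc
Atp6v1b1: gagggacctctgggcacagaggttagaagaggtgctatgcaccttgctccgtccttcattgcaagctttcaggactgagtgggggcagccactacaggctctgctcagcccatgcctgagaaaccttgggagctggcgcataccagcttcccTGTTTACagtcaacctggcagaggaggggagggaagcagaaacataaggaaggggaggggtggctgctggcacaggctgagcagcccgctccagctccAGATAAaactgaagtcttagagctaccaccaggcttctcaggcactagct
Pip: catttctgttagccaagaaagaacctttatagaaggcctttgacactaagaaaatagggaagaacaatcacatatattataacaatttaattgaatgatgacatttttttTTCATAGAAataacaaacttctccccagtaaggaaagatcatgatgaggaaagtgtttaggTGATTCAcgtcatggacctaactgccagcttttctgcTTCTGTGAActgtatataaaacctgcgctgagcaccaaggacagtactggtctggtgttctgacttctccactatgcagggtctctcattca

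Promoters were found for 46 of the 54 genes, 63 promoters in all, and none for Boc, Clic6, Lilrb4a, Pcdhb6, Per2, Scd1, Slc6a2 and Zfp395. The AP-1 letters TGANTCA were in 9 of the 63 (14.3%) and in 7.81% of all 32851 promoters of the table. The NF-kB consensus was in 8 of 63 (12.7%) and in 8.46% of all. The E-box CAGCTG was in 17.5% and 16.3%, the STAT letters TTCNNNGAA in 6.35% and 8.30%, and the GATA letters AGATAA in 7.94% and 11.2%. The forkhead letters TGTTTAC were in 3.17% and 3.65%, the CRE letters TGACGTCA in 1.59% and 1.79%, and the glucocorticoid motif in 0 of 63 and in 0.00913% of all. No motif contains another, and these shares are descriptions of letters in short windows. The median GC content was 57.7% in the 63 promoters and 52.7% in all.

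Genes of lipid and energy handling formed a second group. Them5, a mitochondrial acyl-CoA thioesterase, had ratios of −1.1, −0.97 and −0.85 (mean −0.97 ± 0.12), and its highest value was lower than the highest value of any other of the 54. Mgll, which releases fatty acid from monoacylglycerol, had ratios of −1.15, −0.44 and −0.49, with tumor 1 apart from the other 2. Ppp1r3c, which targets protein phosphatase 1 to glycogen, had ratios of −1.24, −0.59 and −0.80. Scd1, which makes monounsaturated fatty acids, had ratios of −0.56, −0.36 and −0.47. Esrrg, an orphan nuclear receptor known for genes of energy metabolism, had ratios of −0.53, −0.67 and −0.83. Adig, a gene known from differentiating fat cells, had a mean of −0.59. Beside it, 4 of 9 adipocyte markers, Adipoq, Plin1, Cidec and Lep, were not well above background in any channel.

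Enzymes of oxidation and detoxification were a further group. Cyp4b1, a cytochrome P450, had ratios of −2.16, −0.48 and −0.55 (mean −1.06 ± 0.95), so its place at the top of the order rests on tumor 1. Cyp2f2, a cytochrome P450 known from club cells of the airway, had ratios of −0.52, −0.51 and −0.59 with an SD of 0.04. Aldh1a1, which makes retinoic acid from retinal, had ratios of −0.40, −0.37 and −0.54 (−0.09, −0.16 and −0.15 on normalized ratios). These 3 genes therefore ranged from a value carried by 1 tumor to values nearly equal in all.

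Some of the 54 encode secreted proteins or factors of the secretory pathway. Pip, the prolactin-induced protein of apocrine secretions, had ratios of −1.46, −0.86 and −0.66 (mean −0.99 ± 0.42). Sycn, a protein of zymogen granules, had ratios of −0.93, −0.40 and −0.66. Igfbp5, an IGF-binding protein known from mammary involution, had ratios of −0.61, −0.56 and −0.70 (mean −0.62 ± 0.07), close in all tumors. On normalized ratios its values lay farther apart, at −0.83, −0.41 and −0.68. Spp1, the phosphoprotein osteopontin found in milk and bone, had ratios of −0.37, −0.45 and −0.41 (mean −0.41 ± 0.04). Derl3, a factor of protein degradation at the endoplasmic reticulum, had ratios of −0.75, −0.40 and −0.42. Fam20a (mean −0.48), a partner of the Golgi kinase that phosphorylates casein, Elapor1 (−0.56), a membrane protein of endosomes and lysosomes, and Adm2 (−0.47), a peptide hormone, belong here too. Further secreted or matrix proteins were Chad, chondroadherin of cartilage, with ratios of −0.42, −0.89 and −0.60, Emid1 (mean −0.59), Olfml3 (−0.59) and coagulation factor F5 (−0.55). The normalized ratios of Chad were −0.1, −0.34 and −0.24.

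Among adhesion, signaling and nuclear genes, Arhgef6, an exchange factor for Rac and Cdc42, had ratios of −0.83, −0.84 and −0.36. Otud7a, a deubiquitinase, had ratios of −1.21, −0.44 and −0.62, lowest in tumor 1. Cldn10, a tight-junction claudin, had ratios of −0.44, −0.54 and −0.78, and Per2, a repressor of the circadian clock, had ratios of −0.59, −0.38 and −0.43. The means of the others were −0.57 for Pof1b, an actin-binding protein of junctions, −0.51 for Rasgef1c, −0.47 for the Hedgehog co-receptor Boc, −0.45 for the adhesion molecule Chl1, −0.43 for the Rac GTPase-activating protein Chn2, −0.42 for Pcdhb6 and −0.38 for the adhesion receptor Adgrv1. Means were −0.58 for the transcriptional coactivator Eya4, −0.58 for the nuclear pore gene Nup188, −0.57 for Zfp318, −0.50 for Zfp395, −0.55 for the TBK1-binding protein Tbkbp1, −0.60 for N4bp2l1 and −0.42 for Tmem154. The other probes of Nup188 (means 0.02 and 0.06) and of Zfp318 (0.03 and 0.18) were not lower, as described further on. Fam170b was at −0.97, −0.46 and −1.06.

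Both noncoding RNAs lay among the 10 lowest means. Pinc, known as a pregnancy-induced RNA of mammary alveolar cells, had ratios of −0.76, −1.40 and −0.45 (mean −0.87 ± 0.49). Its other probes had means of −0.38, −0.56 and −0.57, closer to 0, and were at 0.56, 0.04 and −0.03 in tumor 3. The RNA 1600025M17Rik had ratios of −1.33, −0.69 and −0.38 (mean −0.80 ± 0.49). On normalized ratios both were lowest in tumor 1, Pinc at −0.64, −0.43 and −0.05 and 1600025M17Rik at −0.50, −0.44 and −0.39.

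A few of the 54 are best known from other cells of a tumor. Folr2, the folate receptor of macrophages, had ratios of −0.90, −0.41 and −0.56. Prtn3, a neutrophil serine protease, had a mean of −0.60, and Lilrb4a, an inhibitory receptor of myeloid cells, a mean of −0.48. Beside these, 5 of 12 measured leukocyte and myeloid markers were below 0 in all 3 tumors and 0 above, with a median of −0.08 and medians of −0.33, −0.15 and −0.02 in tumors 1, 2 and 3. The 5 were S100a8 (−0.89, −0.32 and −0.05), Fcer1g (−0.46, −0.34 and −0.26), Fcgr3 (−0.74, −0.26 and −0.02), Cd68 (−0.34, −0.14 and −0.13) and Tyrobp (−0.29, −0.17 and −0.07). The macrophage genes Aif1 (0.21, 0.58 and −0.02), Csf1r (−0.09, 0.03 and 0.14) and Adgre1 (−0.62, 0.72 and −0.01) had values on both sides of 0. In tumors 1, 2 and 3 the control levels of the 13 such markers on the array, relative to the array median, summed to 1852, 1283.0 and 1159, and the log2 of the summed RL over control level was 0.10, −0.14 and −0.04. Cd14, at 0.56, −0.17 and 0.02, was the brightest over the 6 channels and made up 916.3 of the sum in tumor 1, S100a8 was brighter in the control culture of tumor 2, and Ptprc was above background in only some channels. Kcnj8 and Abcc9 are known from pericytes and vascular smooth muscle, whose marker Pdgfrb had ratios of −0.20, 0.12 and −0.19. Of the smooth muscle genes, which myoepithelium shares, Myl9 was at −0.92, −0.04 and −0.15, Cnn1 at −0.79, 0.21 and −0.44, Acta2 at −0.46, 0.09 and −0.03 and Tagln at −0.29, 0.15 and 0.16, while Myh11 was above background in only some channels. These 4 were lowest in tumor 1, as Abcc9 was, and Kcnj8 was so on processed signals only. In tumor 2, where Abcc9 was at −0.44, Cnn1, Acta2 and Tagln were above 0 and Myl9 was not. In tumor 3, where Abcc9 was at −1.12, Tagln alone of these 4 was above 0. The part of other cell types in these ratios was not tested.

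None of the 7 marker lists held any of the 54 genes. Well above background in all 6 channels were 14 of 14 luminal, 10 of 12 basal, 14 of 15 fibroblast, 5 of 11 endothelial, 4 of 9 adipocyte and 3 of 12 T and B cell markers. Dpt was the fibroblast marker not above background in any channel, and Mylk and Myh11 were the basal markers above it in only some. The medians of the marker lists were −0.02 for luminal epithelium, −0.10 for basal and myoepithelium, −0.08 for fibroblasts, 0.09 for endothelium, −0.08 for adipocytes and 0.01 for T and B cells. In tumors 1, 2 and 3 the medians were 0.13, −0.13 and −0.04 for luminal, −0.34, 0.07 and −0.09 for basal, −0.24, 0.02 and −0.06 for fibroblast and −0.20, −0.05 and −0.14 for adipocyte markers. They were 0.13, 0.07 and 0.17 for endothelial and 0.10, 0.06 and 0.04 for T and B cell markers. Basal, fibroblast, adipocyte and leukocyte and myeloid markers had their lowest median in tumor 1. Luminal, endothelial and T and B cell markers did not. Summed levels gave another order, with basal (0.11) and leukocyte and myeloid markers (0.10) highest in tumor 1. Fibroblast markers were lowest in tumor 3 (−0.10) and adipocyte markers in tumor 2 (−0.06) on summed levels. Of T and B cell markers, 9 of 12 were not well above background in any channel, among them Cd3d, Cd3g, Cd8a and Ms4a1, and Cd4 was the brightest measured. The log2 of the summed RL over control level was −0.09, −0.04 and −0.11 for luminal markers, 0.11, −0.14 and −0.20 for basal markers, and −0.09, −0.07 and −0.10 for fibroblast markers. For endothelial markers, where Kdr was the brightest and Tek was not well above background in any channel, it was 0.11, 0.01 and 0.16. Their part in the result was not tested. For adipocyte markers it was −0.03, −0.06 and 0.13, and for T and B cell markers 0.05, 0.03 and 0.00.

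The control cultures, whose signal entered the rule through the background filter and the ratio, differed strongly between tumors at these genes. The highest over the lowest control signal among the 3 tumors, each scaled to its array median, had a median of 3.53 over the 54 genes and of 1.35 over all 13670. It was above 4-fold for 22 of the 54 (40.7%) and for 4.67% of all genes. Within the 3921 genes whose control intensity lay between the quartiles of the 54, the share above 4-fold was 9.84%. The RL cultures differed likewise, with a median of 2.95 for the 54 and 1.33 for all genes, and a share above 4-fold of 35.2% and 4.47%. Between tumors the dye of the control culture is the same in tumors 1 and 3 only, and the control signal is also the denominator of each ratio, so the level and the ratio are not independent.

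Tumor 1 most often had the highest control signal: for 37 of the 54 genes (68.5%), against 33.4% of all genes. It was highest in tumor 2 for 11 and in tumor 3 for 6. With the same dye, tumor 1 was above tumor 3 for 43 of the 54 genes (79.6%) and for 43.1% of all, and the median of tumor 1 over tumor 3 was 2.52 for the 54 and 0.955 for all. Kcne3 had control signals of 10727, 634.6 and 340.6 in tumors 1, 2 and 3, and with RL 5596, 451.5 and 257.2. Them5 had control signals of 1370.3, 151.5 and 89.3, and Mfsd4a 674.3, 44.3 and 73.2 at the probe that met the rule. Other probes of Mfsd4a differed, with control signals of 194.5, 219.6 and 229.8, lowest in tumor 1, and of 132.3, 15.8 and 20.7. For these 3 genes, at the probes that met the rule, the culture of tumor 1 with RL remained above the untreated cultures of tumors 2 and 3. Pip went the other way, with control signals of 32.2, 4389 and 135.0, so that tumor 2 stood 142-fold above tumor 1 after scaling to the array medians. Spp1 differed little, at 43816, 30085 and 33073. Summed control levels of basal markers were 2061, 3756 and 6047 in tumors 1, 2 and 3, with Krt14 the brightest, those of fibroblast markers 1085, 1454 and 2200, with Vim the brightest over the 6 channels but Fbln2 in the control culture of tumor 3, and those of luminal markers 19954, 15228 and 23103. For endothelial markers they were 147.3, 163.3 and 186.8, for adipocyte markers 16.9, 44.2 and 24.6 with Fabp4 the brightest over the 6 channels but Pparg in the control culture of tumor 1, and for T and B cell markers 90.5, 82.1 and 94.9. The part of cell composition in these tumor differences was not tested. Of the 10 genes left out by name, 7 were above 4-fold between tumors.

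**Figure D2:**
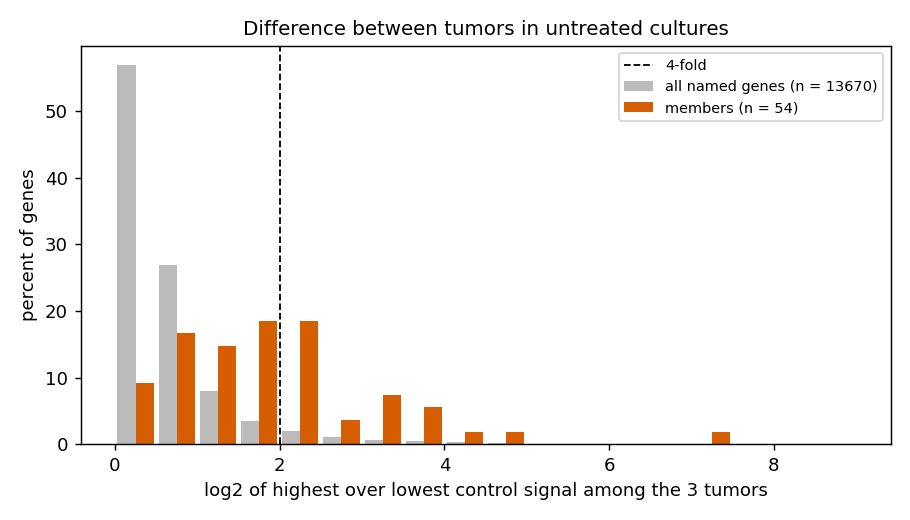
Percent of genes by the log2 of the highest over the lowest control signal among the 3 tumors, in bins 0.5 wide, for the 54 genes (orange) and all 13670 named genes (grey), with a dashed line at 4-fold. Of the 54 genes 40.7% lie to the right of the line and 4.67% of all genes do, and the single bar near 7 is Pip.

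How far the ratios lay below 0 depended on how the intensities were processed. After normexp background correction with an offset of 50 chosen here, loess and Aquantile normalization, all 54 were still below 0 in all 3 tumors, but 14 were at −0.35 or lower in all 3. The median of the normalized means was −0.39 where that of the processed signals was −0.59. The 13 genes with a control signal under 50 in every tumor had a median of −0.17 after normalization and −0.57 before it, and the other 41 had −0.45 and −0.59. Kcnj8, Chad, N4bp2l1, Cldn10, Eya4, Nup188, Zfp318, Pof1b, F5, Lilrb4a, Slc5a1, Aldh1a1 and Tmem154 are those 13. All 14 genes that kept the threshold were among the other 41. The cause of this difference was not tested. Kcnj8 was −0.95 before and −0.27 after, while Igfbp5 was −0.62 and −0.64. Some genes outside the 13 were also closer to 0, and for Cyp4b1, Abcc9, Pinc, Fam170b, Otud7a, Esrrg, Tbkbp1 and Adm2 the mean was more than 2-fold smaller on the log2 scale after normalization. It was −0.83 before and −0.40 after for Fam170b, −0.76 and −0.37 for Otud7a, −0.68 and −0.26 for Esrrg, −0.55 and −0.18 for Tbkbp1, and −0.47 and −0.20 for Adm2.

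**Figure D3:**
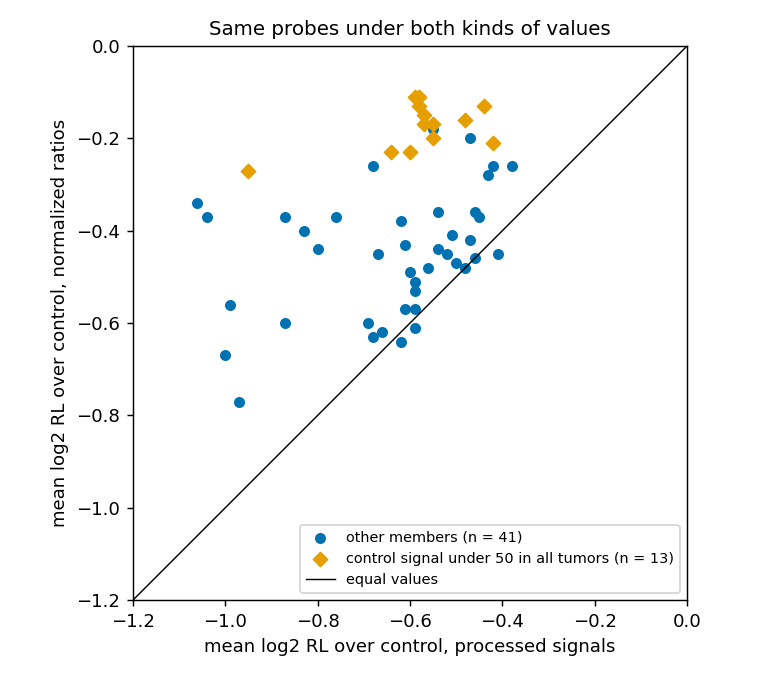
Mean log2 RL over control of the 3 tumors for the same probe of each of the 54 genes, from processed signals (x axis) and from normalized ratios (y axis), with genes of control signal under 50 in all tumors as orange diamonds and a line at equal values. The 13 dim genes lie far above the line, and most of the other 41 lie closer to it.

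By limma on the normalized ratios of all 21728 genes and transcripts tested, 5 were lower with RL (0.0230%) and 1 was higher at an adjusted p under 0.05. The 5 were Lalba, Foxi1, Lrg1, Csn1s1 and Wap, each left out by name here, and the gene that was higher was Ubd. For the 54 genes this is the same contrast as the rule, so the counts describe and do not test. limma called 0 of the 54, with 45 lower at an unadjusted p under 0.05 (3.56% of all genes), and rank product called 22, where it called 0.230% of all genes as lower. The lowest adjusted p of the 54 by limma was 0.0629, for Them5 at −0.77 ± 0.09 (SE) and for Emid1 at −0.61 ± 0.08. With a dye term beside the RL term limma called 32 of the 54, against 0.825% of all genes as lower, but that fit leaves 1 residual degree of freedom and rests on a prior of 38.2 degrees, where the fit without it has 2 and 6.84. For 10 of the 54 genes the brightest probe, which limma used, was not the one that met the rule.

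That difference between probes mattered for some genes. Of the 54, 17 had 25 further probes well above background in all 6 channels, and 14 of the 25 were below 0 in all 3 tumors. Mgll and Zfp395 each had a further probe that met the rule. Kcne3 (−0.90, −0.45 and −0.27), Emid1 (−0.58, −0.55 and −0.27), Olfml3 (−0.82, −0.49 and −0.33) and Elapor1 (−0.52, −0.36 and −0.34) had a further probe below 0 in every tumor. The further probes of Chn2 (mean −0.29), Lilrb4a (−0.28), Pof1b (−0.21) and Tmem154 (−0.16) were below 0 in every tumor with smaller means than the probe that met the rule. The rest did not show the same. Both further probes of Nup188 had means above 0 (0.02 and 0.06). Both further probes of Zfp318 were above 0 in all tumors, with means of 0.03 and 0.18. The further probes of Mfsd4a were at 0.14, −0.19 and −0.02 and at −1.03, −0.51 and 0.15. The further probes of Tbkbp1 (mean −0.20), Chl1 (−0.15), Adig (−0.40) and 2 of 3 of Pinc had at least 1 tumor above 0. Which transcripts the probes of a gene measure was not tested, and for Nup188 and Zfp318 the lower value comes from 1 probe with control signals under 50 in every tumor.

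**Figure D4:**
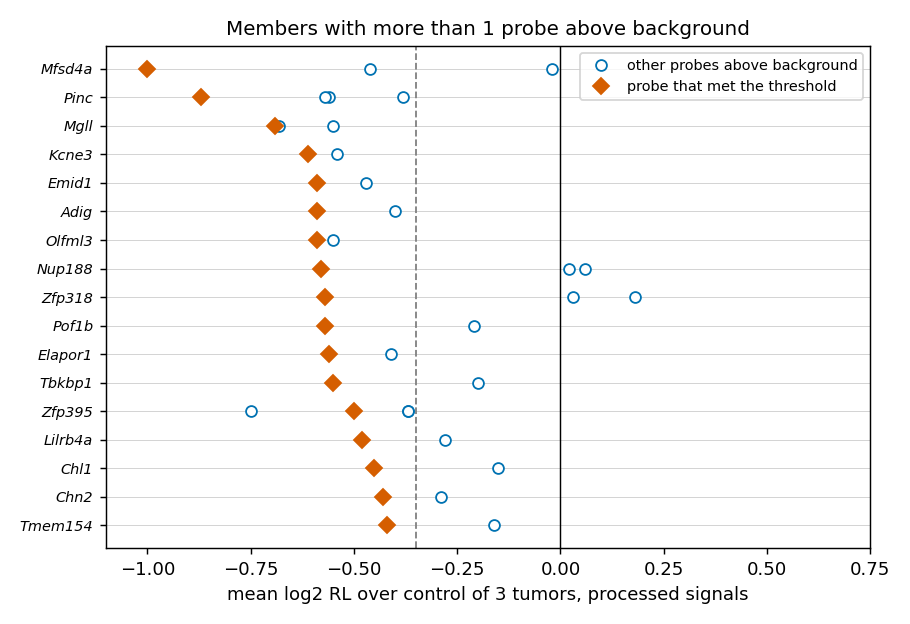
Mean log2 RL over control of 3 tumors from processed signals for the 17 genes with more than 1 probe well above background in all 6 channels, with the probe that met the threshold as an orange diamond and further probes as open circles. The dashed line marks −0.35. The further probes of Nup188 and Zfp318 lie to the right of 0, and those of Mgll and Zfp395 lie to the left of the dashed line.

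Of 26 gene lists, 10 held at least 1 of the 54. The lists, chosen with earlier results of these data known, took in 11 of the 54 (20.4%) and 668 of the 13670 genes (4.89%), and nothing is read from that difference. The 11 were Spp1, Scd1, Them5, Atp6v1b1, Derl3, Per2, Cldn10, Igfbp5, Cyp2f2, Aldh1a1 and Kcne3. Described by the brightest probe of each gene, 15.5% of all 13670 genes were below 0 in all 3 tumors and 14.2% above 0. The list of ionocyte genes and vacuolar proton pump subunits had the lowest median, −0.17, with 13 of 25 measured genes below 0 in all tumors and 0 above. It includes Foxi1, a forkhead factor of acid-secreting cells, which was left out by name (−0.73, −0.83 and −0.65), Atp6v1b1, and outside the threshold Car12 (−0.72, −0.33 and −0.29), Atp6v0a4 (−0.48, −0.32 and −0.12), Atp6v1a (−0.38, −0.22 and −0.23) and Atp6v1e1 (−0.28, −0.27 and −0.26). By limma 1 gene of this list was lower, Foxi1, and 0 were higher. At an unadjusted p under 0.05 by limma the counts were 10 and 0, and by rank product 2 and 0, with Atp6v1b1 in both. Foxi1 and Atp6v1b1 met the threshold of the rule, so these counts describe and do not test. The shares of all genes tested that were lower were 3.56% at an unadjusted p under 0.05 by limma and 0.230% by rank product.

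The list of prolactin, Stat5 and alveolar genes had a median of −0.09, with 13 of 32 below 0 in all tumors and 2 above. It does not hold the milk protein genes Lalba, Wap, Csn2 and Csn1s1, which were left out by name. Spp1 was its only gene among the 54, while Mfge8, a protein of milk fat globules, was at −0.94, −0.16 and −0.28 and the receptor Prlr at 0.07, −0.04 and −0.10. Cish, the gene with the highest mean of this list, was above 0 in all tumors, at 0.56, 0.16 and 0.30. In the list of secretion and unfolded protein response 14 of 39 were below 0 in all tumors, with Derl3 the lowest and Xbp1, the factor that expands the secretory apparatus, at −0.80, −0.52 and −0.11. In fatty acid and triglyceride synthesis 9 of 36 were below 0 and 1 above. Scd1 was the lowest there, Thrsp was at −0.89, −0.16 and −0.29, and Fasn at −0.24, −0.02 and −0.14. Among acyl-CoA thioesterases, Them5 at −0.97 stood apart from a list median of −0.06, with Acot4 (−0.28) next. Per2 was the lowest of 18 clock genes, whose median was −0.08, while Per1 was at −0.18, 0.11 and −0.13. Igfbp5 was the lowest of the growth hormone and IGF list, with Igfbp4 at −0.16, −0.09 and −0.21. Over these 6 lists, limma called 0 of 160 tested genes in either direction. At an unadjusted p under 0.05 by limma, 25 were lower and 2 higher, and rank product called 6 lower and 0 higher. The 25 include Spp1, Scd1, Them5, Derl3, Per2 and Igfbp5, and the rank product calls include Them5, Igfbp5, Scd1 and Spp1. The rule chose these genes, so the counts describe and do not test. Of all genes tested, 3.56% were lower at an unadjusted p under 0.05 by limma and 0.230% by rank product.

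The remaining lists with 1 or more of the 54 were tight junctions (median −0.03, 7 of 24 below 0 in all tumors), Nrf2 and xenobiotic response (−0.04, 10 of 26) and aquaporins, ion channels and carbonic anhydrases (−0.06, 8 of 30). Of the lists without any, hypoxia and glycolysis had a median of −0.09, amino acid response −0.07, imprinted genes −0.06, p53 targets −0.05, immediate early genes −0.04, Wnt −0.02 and TGF-beta and BMP 0.00. Hormone-sensing luminal genes had a median of 0.02 with 0 of 20 below 0 in all tumors and 5 above. Medians were 0.02 for acute phase genes, 0.02 for Notch, 0.03 for cholesterol synthesis and 0.08 for mitosis. Glucocorticoid-responsive genes had a median of 0.08, with 7 of 22 above 0 in all tumors and 2 below. Interferon-stimulated genes had a median of 0.09, with 9 of 34 above 0 in all tumors and 1 below, beside 14.2% of all genes above and 15.5% below. S phase genes, with a median of 0.13, had 13 of 31 above 0 in all tumors. The NF-kB list lay at the other end, with a median of 0.37 and 18 of 24 above 0 in all tumors, among them Icam1 at 1.69, 0.74 and 0.48 and Nfkbie at 1.52, 0.67 and 0.36. For the NF-kB genes tumor 1 had the largest values too, with list medians of 0.64, 0.28 and 0.20 in tumors 1, 2 and 3. limma called 0 of these NF-kB genes, with 18 higher at an unadjusted p under 0.05, and rank product called 6 higher.

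**Figure D5:**
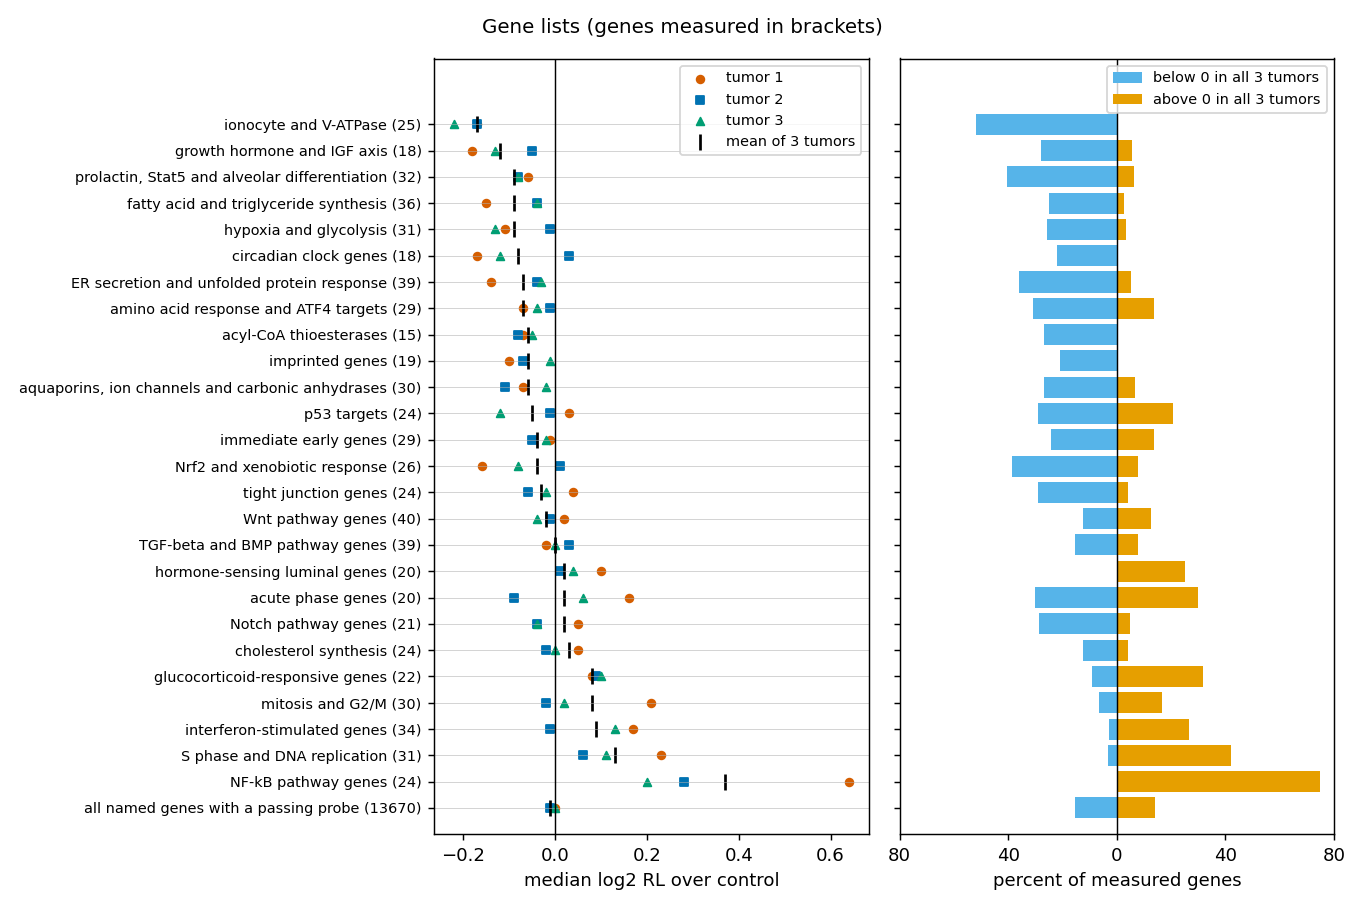
Gene lists ordered by median, with all named genes last. The left panel gives the median log2 RL over control from processed signals in each tumor and for the mean of the 3, and the right panel the percent of measured genes below 0 (blue, to the left) and above 0 (orange, to the right) in all 3 tumors. The ionocyte and proton pump list has the lowest median at −0.17 and the NF-kB list the highest at 0.37.

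Genes on either side of the threshold had nearly the same values. On the array with its highest ratio, Adgrv1 was at −0.351, Arhgef6 at −0.356 and Scd1 at −0.359, just inside. Ceacam20 at −0.349, Rerg at −0.349 and Ehhadh at −0.346 were just outside. Adgrv1 and Ehhadh had means of −0.38 and −0.37.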

How the data were processed

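Two-color Agilent arrays of 3 tumors were used, 1 array per tumor, all on 1 slide and 1 scan, so the number of arrays limits the precision. The authors took the intensities of spots from the scans with the default values of the Agilent software Feature Extraction. Per the file headers the median intensities of spot and background are uncorrected, and the processed intensities were background-subtracted, detrended and dye-normalized by the software. The log10 ratios in the deposited scanner files have Cy3 as denominator and were not used further. The deposited table of log2 ratios names samples only, and their titles give RL and control in an order that differs between tumors. Set against the normalized RL over control ratios across 30485 spots, its columns had r of −0.965, 0.958 and −0.965 and slopes of −1.15, 1.17 and −1.147 in tumors 1, 2 and 3, so they run as Cy5 over Cy3, on a scale slightly wider than the one computed here, and their medians were 0.00329, 0.000361 and 0.000888. The reason for the wider scale stays unknown.

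Members were found from log2 ratios of processed intensities, averaged over the spots of a probe, and the brightest probe that met the rule gives a gene's values. Probes were named by accession against RefSeq (28026 of 55681 probes), and 53 by a name in the file, Pinc among them. The other 27602 stayed unnamed. For the fit, median intensities were corrected with normexp (offset 50 chosen here, since the methods give none), normalized by intensity loess, spatial loess (span 0.1) and Aquantile, without control spots and spots marked as outliers (204, 195 and 223), and tested with limma 3.58.1 in R 4.3.3 with Benjamini-Hochberg adjustment. The brightest probe well above background in all 3 control or all 3 RL channels stood for a gene. Rank product used 1000 permutations. The fit and the rank product were tested on simulated data. Every member is named, with the value of each tumor for the 20 lowest means and for members of gene lists. The examples named from gene lists outside the 54, the groups by role and the promoters shown were chosen after their values were seen. The members and lists were chosen with earlier results of these data known. The brightest marker is that of the highest mean log2 signal, which is no comparison of RNA levels, and summed marker levels add probes of unlike brightness.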

Additional observations from a re-analysis of the deposited data

How the results depend on the processing

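The number of genes that met the rule depended on its settings. It was 129 at a threshold of −0.25, 11 at −0.50, 15 on normalized log2 ratios, 24 on the authors' log2 ratios turned to RL over control, and 184 with no filter on dim probes. It ran from 111 to 324 without each replicate in turn, the highest without tumor 2, where 1 dye order is left. It was 71 with control channels alone filtered. These looser rules and those with 1 array fewer hold all 54 by construction. All 54 were also found after median centering (56). Without outlier spots the count was 54, but 0 of the 54 had such a spot, so this setting could not remove any. With the mean over the passing probes of a gene it was 42, without Mfsd4a, Pinc, Kcne3, Adig, Nup188, Zfp318, Pof1b, Tbkbp1, Lilrb4a, Chl1, Chn2 and Tmem154.

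Genes lower and higher by limma numbered 5 and 1, and 179 and 138 with a dye term, 12 and 5 with no background correction, 30 and 14 with intensity trend and robust moderation, and 50 and 32 by rank product. On processed signals limma called 0 and 0 (803 and 857 at an unadjusted p under 0.05), and where arrays were only centered on their medians 0 and 0 (39 and 15). With no filter on dim probes it called 3 and 0 (1151 higher unadjusted), with all 6 channels above background 5 and 0 (736 higher unadjusted), with each probe on its own 9 and 1, and on the authors' log2 ratios 7 and 2. Without each replicate in turn the lower genes ran from 2 to 922 and the higher ones from 1 to 632, both highest without tumor 2. The causes were not tested.

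All settings use the arrays that chose the 54, so means below 0 support nothing. With the mean over passing probes, normalized means of Nup188 and Zfp318 were −0.02 and 0.0. Without each replicate the normalized means of the 54 ran from −0.87 to −0.08. Every fit on ratios pairs RL with the control of the same tumor. The ratios of 13 genes rest on control signals under 50 in every tumor.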

Other observations

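Besides the named genes, 22 probes without a gene name met the same threshold in all 3 tumors, of 10002 unnamed probes well above background in all 6 channels, and 19 met the mirrored one. Of the 22, 14 carry the name of a genomic region of the array design (build mm9), over 13 regions. The other 8 carry transcript names that matched no gene in RefSeq here. Whether any of these belong to a named gene or to a gene left out by name was not tested. Both probes of the region chrX:50400250-50410825 met it, with log2 RL over control of −1.06, −0.70 and −0.39 for 1 probe and −1.03, −0.53 and −0.55 for the other in tumors 1, 2 and 3. A probe of the region chr8:108153471-108159672 had ratios of −0.88, −0.59 and −0.70 at control signals of 2313, 357.7 and 119.3, highest in tumor 1 as for most of the named genes. A probe of chr16:8738782-8830148 had ratios of −0.85, −0.44 and −0.56 at control signals of 433.4, 59.7 and 20.3. These regions were chosen after their values were seen, and which transcripts they hold was not tested.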
